A study of Mus musculus with 6 samples.

Results

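The genes described here are 6 genes whose products package DNA in the heads of maturing sperm cells or are expressed alongside them: the transition protein genes Tnp1 and Tnp2, the protamine genes Prm1, Prm2 and Prm3, and Hmgb4, which encodes a testis protein with a high-mobility-group (HMG) box. They were chosen by name and matched through their Ensembl identifiers, 6 of the 53700 genes in the deposited count tables. All 6 were among the 21902 genes with enough reads to test.

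In round spermatids, the haploid cells that follow meiosis, DNA is still wound on histones. As the cells elongate, most histones are removed, transition proteins take their place, and protamines then replace the transition proteins and condense the chromatin of the sperm head. The messenger RNAs of these genes are made while transcription is still possible, stored with RNA-binding proteins and translated later, so RNA and protein need not appear at the same time. A balanced supply of protamine 1 and protamine 2 is known to matter for male fertility in mice.

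RNA came from whole testes of mice at postnatal day 45, an age at which the first waves of spermatogenesis have produced elongated spermatids. There were 3 mice with the genotype label MSL3 WT and 3 with the label MSL3 cKO, a conditional knockout of a floxed Msl3 allele, and all 6 carry the strain label Msl3em1Forni/C57BL/6J. No treatment was recorded for either group. The labels call the 3 samples of a group biological replicates and name no batch. A floxed allele is removed only in cells that carry a recombinase, and the recombinase line, the deleted exons and the cells in which deletion took place are not given in the sources used here.

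Total RNA was read as single-end reads of 75 bp, and between 56991431 and 73766444 reads per library were assigned to genes. Msl3, the targeted gene, which encodes a subunit of the male-specific lethal complex, was counted 942, 1226 and 990 times in the 3 WT libraries and 1170, 829 and 923 times in the 3 cKO libraries. It differed by -0.12 on the log2 scale (SE 0.088, edgeR quasi-likelihood adjusted p = 0.551) and the groups overlapped. The Msl3 counts therefore do not separate the labels, and WT and cKO stand here for the libraries labelled so, with differences given as cKO minus WT. Levels are CPM, the usual read counts relative to library size, with library sizes scaled by the trimmed mean of M values (TMM), and errors are SDs over 3 libraries. Over all genes the library cKO 2 stood apart from 4 of the other libraries, with a chi-square of 37.3 to 42.4 per gene, while its value with cKO 3 was 13.3 and pairs without cKO 2 had 5.29 to 34. By the correlation of log2 CPM it hardly stood apart, with 0.992 to 0.995 in its pairs and 0.993 to 0.996 in pairs without it. Because of the chi-square values, results are also given without cKO 2. Because whole testes were used, fewer cells of a type and less RNA per cell cannot be told apart.

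Tnp2, Prm3, Prm2 and Prm1 lie in this order on chromosome 16 and Tnp1 and Hmgb4 lie apart, all transcribed from the minus strand (GRCm38, GENCODE M21). Tnp2 (ENSMUSG00000043050) is at chr16:10787936-10788660 and has 2 exons. Prm3 (ENSMUSG00000050058), at chr16:10790505-10790914, has 1 exon. Prm2 (ENSMUSG00000038015) spans chr16:10791380-10796134 and Prm1 (ENSMUSG00000022501) spans chr16:10796326-10805839, each with 2 annotated transcripts. In both genes a second transcript begins at a far upstream exon and makes the span long, while the first annotated transcript measures only 621 bases in Prm2 and 469 in Prm1. Tnp1 (ENSMUSG00000026182), at chr1:73015074-73015909, has 2 exons, of which the upstream one shares 40 bases with an exon of the opposite-strand gene 1700027A15Rik. Hmgb4 (ENSMUSG00000048686), at chr4:128260212-128260957, is a gene of 1 exon inside the span of Csmd2, which is on the opposite strand and shares no exonic base with it. None of the members' 75-base windows occurred exactly in an annotated transcript of another gene (0% for each), and copies that differ by a mismatch were not searched for.

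**Figure D1:**
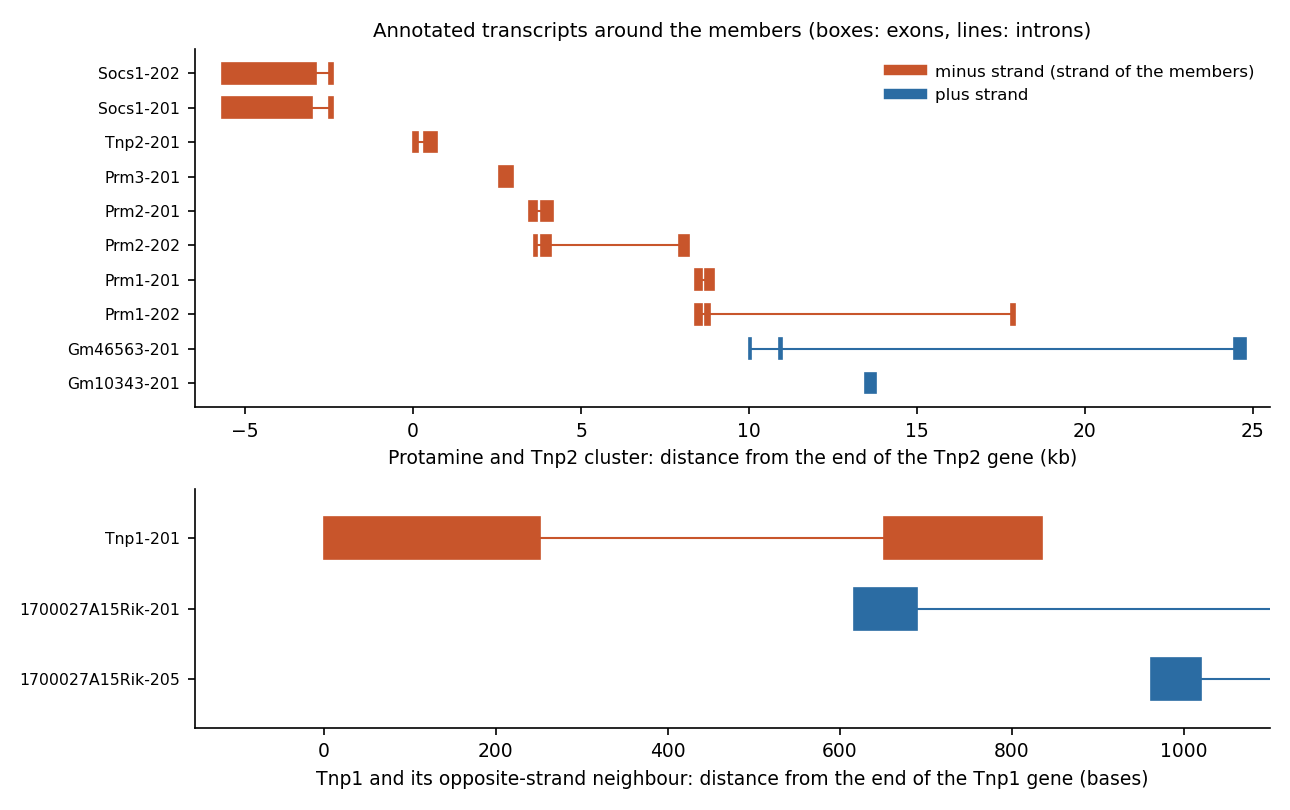
Annotated transcripts of the chromosome 16 cluster (upper panel, distance in kb from the end of Tnp2) and of Tnp1 with its opposite-strand neighbour (lower panel, distance in bases from the end of Tnp1). Boxes are exons, lines are introns and colour gives the strand; 40 bases of the upstream Tnp1 exon overlap an exon of 1700027A15Rik.

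The transcription of spermatid genes is known to involve CREM, a spermatid activator that binds cAMP response elements. The sequences before the start sites are printed because 2 of the genes, Tnp1 and Hmgb4, share an 8-base motif there. That motif was picked after the sequences had been read, and a link between it and CREM was not tested. Each line gives the 120 bases upstream of the GENCODE start, 5′ to 3′ on the gene's own strand, read from the RefSeq promoter sequences of GRCm38.p6. The RefSeq start lies downstream of the GENCODE start by 10 bases in Tnp1, 62 in Hmgb4, 5 in Tnp2 and 63 in Prm1, and at the same base in Prm2. Capitals mark TGATGTCA or its reverse complement TGACATCA, the reverse complement ATTGG of CCAAT, and the reverse complement TTTATA of TATAAA.
Tnp1 (chr1:73015910-73016029): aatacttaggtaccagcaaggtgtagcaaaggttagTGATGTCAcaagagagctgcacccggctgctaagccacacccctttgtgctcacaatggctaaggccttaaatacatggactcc
Hmgb4 (chr4:128260958-128261077): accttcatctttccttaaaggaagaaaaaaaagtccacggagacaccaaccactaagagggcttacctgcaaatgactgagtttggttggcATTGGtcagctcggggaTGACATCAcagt
Tnp2 (chr16:10788661-10788780): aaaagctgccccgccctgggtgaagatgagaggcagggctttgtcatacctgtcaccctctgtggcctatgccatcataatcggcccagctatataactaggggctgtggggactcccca
Prm1 (chr16:10796887-10797006): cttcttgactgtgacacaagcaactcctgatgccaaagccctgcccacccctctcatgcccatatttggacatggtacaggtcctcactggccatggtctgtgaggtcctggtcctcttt
Prm2 (chr16:10792106-10792225): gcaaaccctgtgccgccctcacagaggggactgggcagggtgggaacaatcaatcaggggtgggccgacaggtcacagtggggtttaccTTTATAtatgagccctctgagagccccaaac

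Motifs were searched on both strands of the 250 bases before the RefSeq start. The full cAMP response element TGACGTCA is in 1.55% of 32851 promoters, and its shorter form TGACG, which is contained in it, is in 17.77%. Neither form is in the 250 bases of any member, which says only that these letters are not in that window. TGATGTCA, a motif chosen after the sequences had been read and overlapping none of the others, is in 2.93% of promoters and, of the members, in Tnp1 and Hmgb4. In Tnp1 its first base lies 94 bases before the RefSeq start and 84 before the GENCODE start. In Hmgb4, as its reverse complement, it begins 74 bases before the RefSeq start and 12 before the GENCODE start. TATAAA is in 12.37% of promoters and, as its reverse complement, in Prm2. CCAAT is in 33.85% and was found in Prm3 and Hmgb4. Such a match is a description of the sequence and not a binding site.

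The members were among the most abundant RNAs of these testes. Prm2 had the highest CPM of all genes in 5 libraries and was second in the library labelled cKO 2. Prm1 ranked between 4 and 10 over the 6 libraries, Tnp2 between 5 and 9 and Tnp1 between 8 and 24. Hmgb4 ranked between 358 and 607 and Prm3, the least abundant, between 1759 and 2368. Together the 6 genes took up 1.42%, 1.43% and 1.54% of the assigned reads in the WT libraries and 1.43%, 1.13% and 1.34% in the cKO libraries. These shares, 1.46% ± 0.067 (SD, n = 3) and 1.3% ± 0.15 (SD, n = 3), overlapped (exact two-sided permutation p = 0.2, where the smallest possible p is 0.1), and without cKO 2 they differed by -0.08 percentage points in place of -0.16.

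Levels of different genes were compared per kb of annotated exon. On this scale the WT levels were 6126 ± 374 CPM per kb for Prm1, 5812 ± 231 for Tnp2, 5723 ± 746 for Tnp1 and 5337 ± 373 for Prm2 (SD, n = 3). Neighbours in this order did not differ beyond their spread, and these 4 genes took the first 4 places of all genes in every library. The order depends on the gene model: per kb of the first annotated transcript alone, Prm2 had 7683 ± 537 CPM per kb and Prm1 had 7459 ± 455 (SD, n = 3) in the WT libraries. Hmgb4 had 533 ± 26.3 CPM per kb of exon and Prm3 had 289 ± 27 (SD, n = 3), each apart from its neighbours in the order. Prm3, which encodes an acidic protein of the spermatid cytoplasm rather than a DNA-packaging protein, was thus far below the other genes of its own cluster. In the libraries labelled cKO the levels were 5340 ± 804 CPM per kb for Prm1, 5310 ± 640 for Tnp2, 4343 ± 571 for Tnp1 and 5352 ± 602 for Prm2 (SD, n = 3). There too Hmgb4 (448 ± 13.7 CPM per kb) and Prm3 (293 ± 39 CPM per kb) were the lowest (SD, n = 3).

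Of the 6 members, 0 passed an edgeR adjusted p of 0.05 over all genes, where 0.0183% of tested genes (4 of 21902) did and 0.00913% did with a lower cKO level. At an unadjusted p under 0.05, 2 members were lower in the libraries labelled cKO (Tnp1 and Hmgb4) and 0 were higher, beside 6.54% of all tested genes lower (1433) and 7.33% higher (1606). With library totals alone these were 1861 lower and 1136 higher. DESeq2, run as an alternative, called these 2 genes, beside 1.39% of the genes it tested, and 0.777% with a lower cKO level. Over the 6 members 4 log2 fold changes were below 0 and 2 above, with a median of -0.16, while all 6 were below 0 with library totals alone. The median was -0.04 with a correction for GC content and transcript length, -0.06 without cKO 2 and -0.24 without cKO 1. Over all tested genes 49.3% were below 0 and the median was 0.003. The groups did not overlap for 1 member, Hmgb4, beside 8.85% of all tested genes that were lower without overlap and 18.9% that were separated in either direction.

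**Figure D2:**
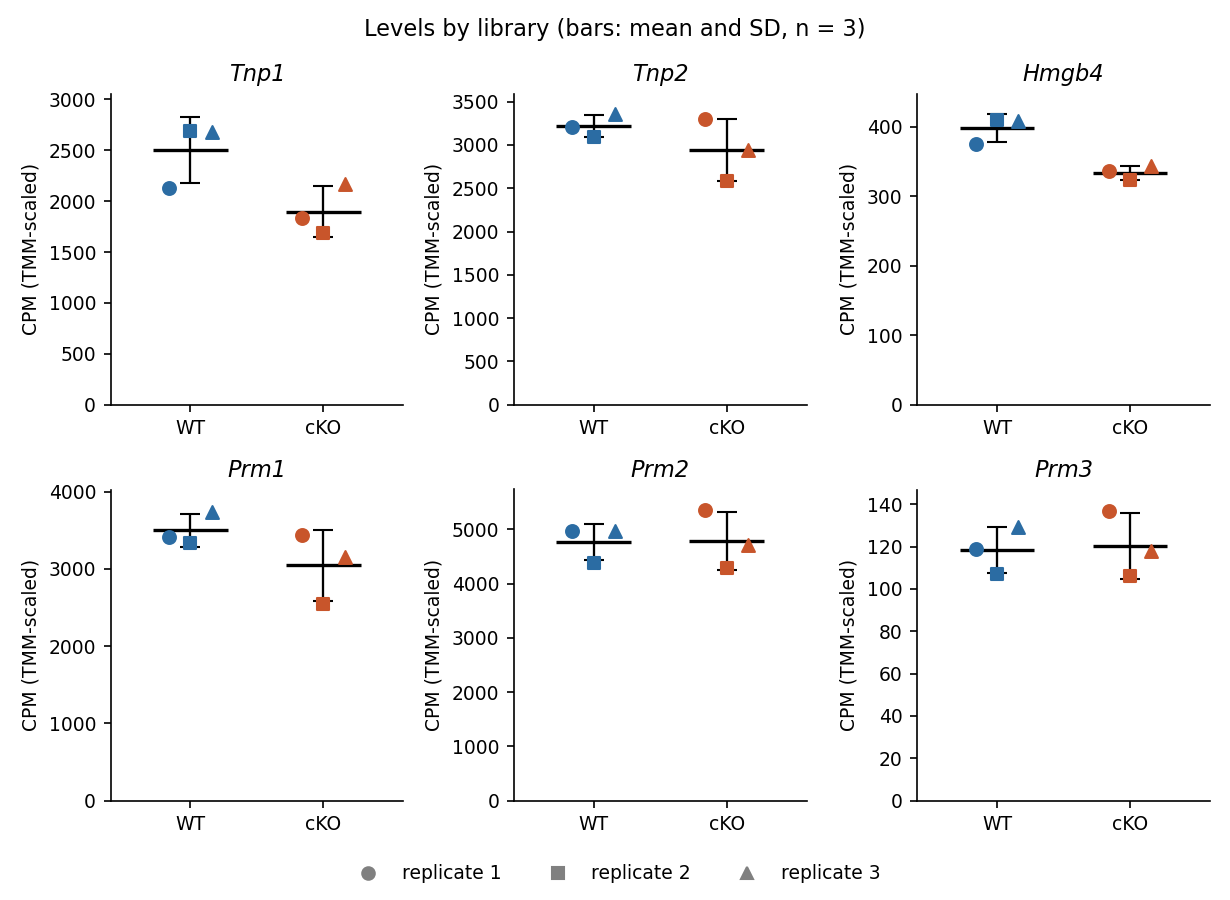
Level of each gene in CPM on TMM-scaled library sizes (vertical axis, from 0) in the 3 libraries labelled WT and the 3 labelled cKO; symbols mark the replicate number, long bars the mean and whiskers the SD. The 3 cKO points of Hmgb4 (323 to 343 CPM) lie below all WT points (375 to 410 CPM), while the groups of the other 5 genes overlap, and cKO replicate 2 is the lowest library for each gene.

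Transition protein 1, a small basic protein that occupies DNA between histones and protamines, had the largest difference of the 6. Tnp1 measured 2125, 2695 and 2683 CPM in the libraries labelled WT 1, 2 and 3 and 1836, 1685 and 2172 CPM in those labelled cKO 1, 2 and 3. Thus 2 cKO libraries lay below all WT libraries, and the groups met where cKO 3 was just above WT 1. The means were 2501 ± 326 and 1898 ± 250 CPM (SD, n = 3), which puts cKO at 75.9% of WT (95% limits 64.5% and 89.3%). On the log2 scale the difference was -0.40 (SE 0.11), for which edgeR gave an unadjusted p of 0.00312 and an adjusted p of 0.276. DESeq2 gave an adjusted p of 0.0281 and 0.0666 without its filter on low means, and edgeR without the library WT 1 gave -0.50 with an adjusted p of 0.047. With each library corrected for GC content and transcript length, the log2 fold change was -0.22 (edgeR adjusted p = 0.455), and without cKO 2 it was -0.32 (edgeR adjusted p = 0.584). The Tnp1 transcript is 437 bases long with 49.2% GC, against a median longest transcript of 2676 bases and a median GC of 48.9% among tested genes.

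The opposite-strand neighbour bears on how Tnp1 is counted. Without regard to strand, reads in the shared 40 bases are ambiguous, and Tnp1 lost 27.3%, 25.8% and 27.6% of its reads in the WT libraries and 28.4%, 26.9% and 28.1% in the cKO libraries. The loss was thus similar in all 6 libraries, and the counts of the other 5 members differed between the stranded and unstranded columns by less than 1%. 1700027A15Rik itself measured 343, 319 and 347 CPM in the WT libraries and 369, 238 and 302 CPM in the cKO libraries. Its highest and its lowest library were both labelled cKO, unlike Tnp1, and its log2 fold change was -0.15 (edgeR adjusted p = 0.61).

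Transition protein 2, a zinc-binding basic protein that acts at the same step as transition protein 1, differed less. Tnp2 measured 3210, 3097 and 3353 CPM in the WT libraries and 3299, 2589 and 2937 CPM in the cKO libraries. The library cKO 1 lay within the WT range and the other 2 below it. The means were 3220 ± 128 and 2942 ± 355 CPM (SD, n = 3), which differed by -0.13 on the log2 scale (SE 0.085, 95% limits -0.32 and 0.05, edgeR adjusted p = 0.509). The value depended on the cKO libraries, being -0.05 without cKO 2 and -0.22 without cKO 1, and was -0.02 after the correction for GC content and length.

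Protamine 1, the arginine-rich protein that all mammals use to condense sperm DNA, followed Tnp2 closely. Prm1 measured 3416, 3338 and 3740 CPM in the WT libraries and 3445, 2546 and 3157 CPM in the cKO libraries. Again cKO 1 lay within the WT range, with cKO 2 and cKO 3 below it. The means were 3498 ± 213 and 3049 ± 459 CPM (SD, n = 3), which differed by -0.20 on the log2 scale (SE 0.099, 95% limits -0.41 and 0.02, edgeR adjusted p = 0.392). The value depended on the cKO libraries here too, being -0.08 without cKO 2 and -0.30 without cKO 1. It was -0.06 after the correction for GC content and length.

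Protamine 2, which is made as a precursor and cut to its mature form on the DNA, had nearly equal means. Prm2 measured 4962, 4386 and 4965 CPM in the WT libraries and 5356, 4288 and 4709 CPM in the cKO libraries, so that the highest and the lowest library were both labelled cKO. The means were 4771 ± 333 and 4784 ± 538 CPM (SD, n = 3), which differed by 0.00 on the log2 scale (SE 0.087) that was -0.02 with library totals alone. The 95% limits of -0.18 and 0.19 leave room for differences of that size in either direction. Prm3 measured 119, 107 and 129 CPM in the WT libraries and 137, 106 and 118 CPM in the cKO libraries, with the same libraries highest and lowest as for Prm2. Its log2 fold change of 0.02 (SE 0.099, 95% limits -0.19 and 0.24, edgeR adjusted p = 0.94) became -0.00 with library totals alone. After the correction for GC content and length the values were 0.11 for Prm2 and 0.14 for Prm3 (edgeR adjusted p = 0.652 and 0.584), and without cKO 2 they were 0.08 and 0.11. The signs of Prm2 and Prm3 therefore rest on the processing.

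Hmgb4 encodes an HMG-box protein that is largely restricted to the testis and, unlike the other HMGB proteins, lacks the acidic tail. It measured 375, 410 and 409 CPM in the WT libraries and 336, 323 and 343 CPM in the cKO libraries. All 3 cKO libraries lay below all 3 WT libraries. The means were 398 ± 19.6 and 334 ± 10.2 CPM (SD, n = 3), which puts cKO at 84% of WT (95% limits 76% and 92.8%). On the log2 scale the difference was -0.25 (SE 0.066), for which edgeR gave an unadjusted p of 0.00247 and an adjusted p of 0.276. By unadjusted p Hmgb4 ranked 186 and Tnp1 ranked 241 of the 21902 genes. DESeq2 gave Hmgb4 an adjusted p of 0.0437 and 0.108 without its filter on low means. After the correction for GC content and length the log2 fold change was -0.10 (edgeR adjusted p = 0.569), for a transcript of 746 bases with 47.6% GC, and without cKO 2 it was -0.23 (edgeR adjusted p = 0.584).

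The HMG-box relatives Hmgb1, Hmgb2 and Hmgb3 did not pass the test with edgeR or DESeq2, and 0 had an unadjusted p under 0.05. Hmgb1 was higher in all cKO libraries without overlap, and the groups of Hmgb2 and Hmgb3 overlapped. Hmgb2 had 54.9 ± 1.37 CPM in the WT and 54.9 ± 2.35 CPM in the cKO libraries, Hmgb1 had 27.3 ± 0.432 and 28.9 ± 0.598 CPM, and Hmgb3 had 14.1 ± 1.23 and 15.4 ± 1.26 CPM (SD, n = 3). Of the 3 genes, 0 had a log2 fold change below 0 with TMM scaling and 1 did with library totals alone.

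**Figure D3:**
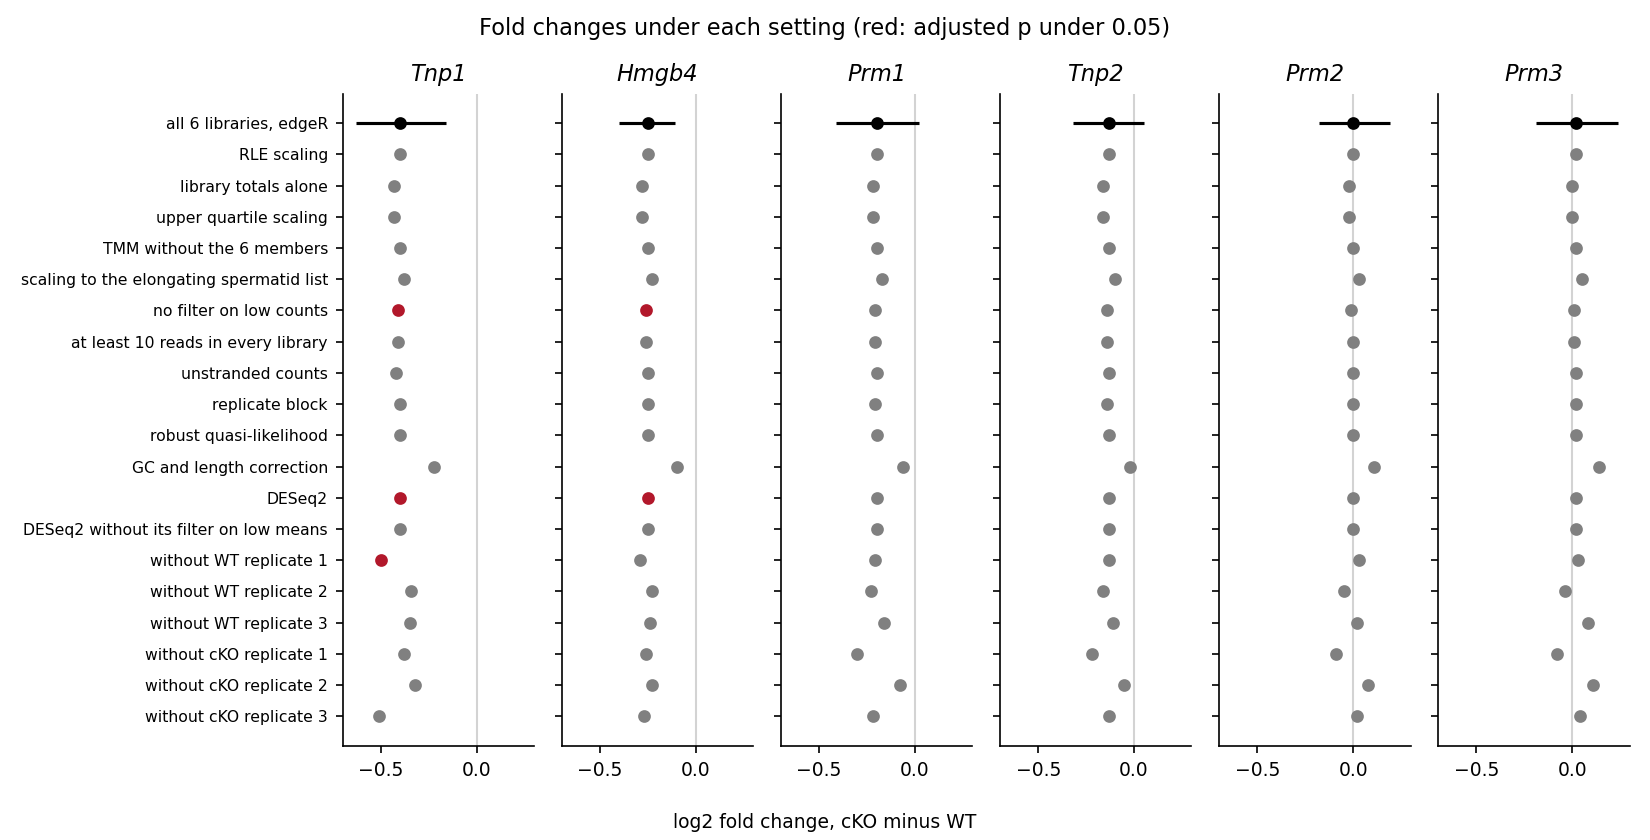
Log2 fold change, cKO minus WT, of each gene (panels) under each setting (rows); the top row shows all 6 libraries with edgeR and its 95% interval, and red points have an adjusted p under 0.05. Tnp1 and Hmgb4 stay below 0 in all rows and are red in 3 and 2 of them, and each gene's point is shifted to the right in the row with the GC and length correction.

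Ratios within a library do not depend on library size or scaling. The ratio of Prm1 reads to Prm2 reads was 0.688, 0.761 and 0.753 in the WT libraries and 0.643, 0.594 and 0.67 in the cKO libraries. All 3 cKO ratios were below all 3 WT ratios, although neither gene separated the groups by itself. The means were 0.734 ± 0.04 and 0.636 ± 0.039 (SD, n = 3), a difference of -0.21 on the log2 scale. The exact two-sided permutation p was 0.1, the smallest that 3 libraries against 3 allow, and 0.2 after Benjamini-Hochberg adjustment over the 3 ratios. Without cKO 2 the difference was -0.16 on the log2 scale, and it was -0.27 for the ratio of Tnp1 to Tnp2.

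The ratio of Tnp1 reads to Tnp2 reads was 0.662, 0.87 and 0.8 in the WT libraries and 0.557, 0.651 and 0.74 in the cKO libraries. The groups overlapped, with WT 1 below cKO 3, and replicate 1 was the lowest of its group in both groups. The means were 0.777 ± 0.11 and 0.649 ± 0.091 (SD, n = 3), a difference of -0.26 on the log2 scale (exact permutation p = 0.2, adjusted p = 0.2). Reads of Prm1 and Prm2 together, divided by those of Tnp1 and Tnp2, gave 1.57, 1.33 and 1.44 in the WT libraries and 1.71, 1.6 and 1.54 in the cKO libraries. These also overlapped, with means of 1.45 ± 0.12 and 1.62 ± 0.089 (SD, n = 3, exact permutation p = 0.2, adjusted p = 0.2). A ratio of reads is not a ratio of molecules, since the transcripts differ in length and GC content (54.4% for Prm1, 56.7% for Prm2, 49.2% for Tnp1 and 58.5% for Tnp2).

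**Figure D4:**
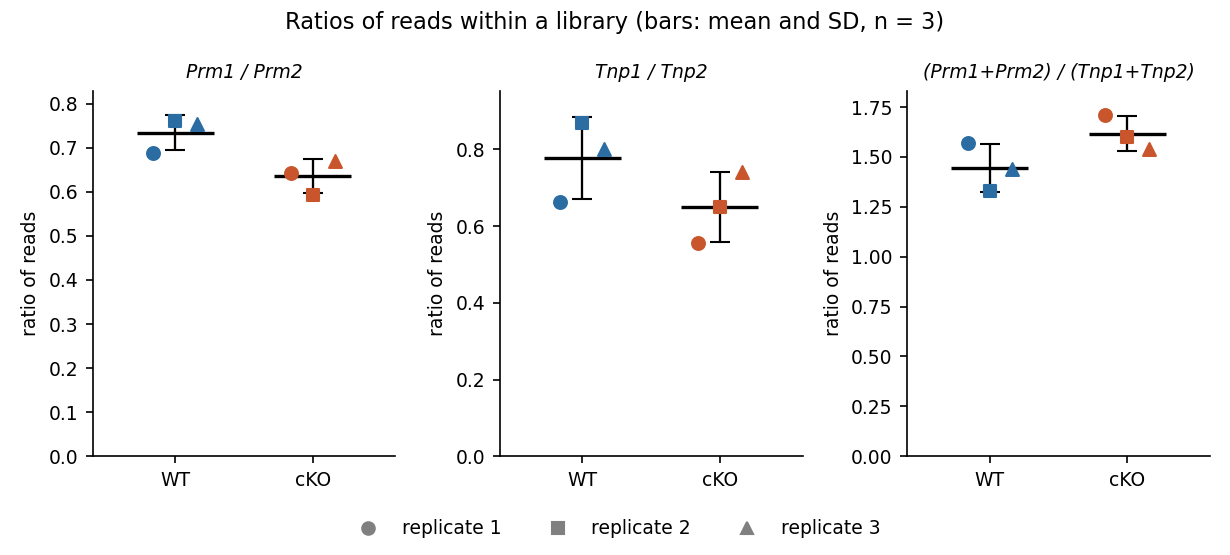
Ratios of reads within a library (vertical axes, from 0) in the 3 libraries labelled WT and the 3 labelled cKO; symbols mark the replicate number, long bars the mean and whiskers the SD. The cKO ratios of Prm1 to Prm2 (0.594 to 0.67) lie below the WT ratios (0.688 to 0.761), and the groups of the other 2 ratios overlap.

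How alike the members were across the 6 libraries was described by the root-mean-square distance between log2 levels after each gene's own mean had been removed, over the 4440 genes that averaged 50 CPM or more. Prm1 and Tnp2 were 0.056 apart. The closest genes of all to Prm1 were Snrpd2 at 0.042, Vasp at 0.043 and 1700019M22Rik at 0.047, and the genes between these and Tnp2 were not counted. From Prm1, Prm2 was at 0.125, Prm3 and Hmgb4 at 0.126 and Tnp1 at 0.184, beside a median of 0.2 over all compared genes. Tnp1 had its closest genes in Tex13a and Txndc8, each at 0.043, and Prdx4 at 0.046. Of the members Hmgb4 was nearest to Tnp1 at 0.132 and Prm3 farthest at 0.285, where the median of all compared genes was 0.29. The closest genes to Hmgb4 were D030056L22Rik at 0.014, 4430402I18Rik at 0.023 and Izumo2 at 0.026, beside a median of 0.18. All these distances share the same 6 libraries and their scaling.

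Genes that neighbour the members were compared for a local pattern. Of the 12 tested neighbours, 0 had an adjusted p under 0.05 by edgeR or DESeq2. DESeq2 gave no adjusted p for the neighbours of low level, among them Socs1, Csmd2 and Hmgb4os. By edgeR 2 neighbours had an unadjusted p under 0.05 without overlap, both higher in the cKO libraries. Over all tested genes 7.33% were higher at that p and 10% were higher without overlap. Clec16a, beside the chromosome 16 cluster, measured 48.6 ± 0.962 and 58.4 ± 7.28 CPM (SD, n = 3), which differed by 0.26 on the log2 scale (edgeR adjusted p = 0.291). CK137956, near Hmgb4, had 0.18 (edgeR adjusted p = 0.325). Zscan20, also near Hmgb4, was higher without overlap at 0.17, with an unadjusted p above 0.05 (edgeR adjusted p = 0.375). Socs1, which lies next to Tnp2, encodes a suppressor of cytokine signalling and had 2.68 CPM in each group. Hmgb4os, annotated as antisense on the opposite strand but not overlapping Hmgb4, measured 2.27 ± 0.32 and 1.99 ± 0.21 CPM (SD, n = 3, edgeR adjusted p = 0.614). Csmd2, within whose span Hmgb4 lies, had a log2 fold change of -0.04, and Igfbp2, near Tnp1, had -0.22 (edgeR adjusted p = 0.405).

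The genes that act around the histone-to-protamine exchange were counted from lists of fixed membership. Among 23 histone variants and exchange factors 14 log2 fold changes were above 0 and 9 below, with a median of 0.03. By edgeR 0 of 23 passed the adjusted p, and 3 were higher and 2 lower at an unadjusted p under 0.05. DESeq2 called 0, with no adjusted p for the low-level genes Hist1h1t, Hist1h2ba and Hist1h2aa. Hils1, a spermatid linker histone, measured 674 ± 52.4 and 559 ± 52.3 CPM without overlap, a log2 fold change of -0.27 (edgeR adjusted p = 0.288). Chd5, a chromatin remodeller of spermatids, measured 338 ± 11.4 and 411 ± 65.1 CPM, and Top2b, a DNA topoisomerase, 56.9 ± 1.89 and 68 ± 7.23 CPM, both higher in all cKO libraries (edgeR adjusted p = 0.303 and 0.288). The most abundant of the list were Phf7, a reader of histone marks (3145 ± 33.3 and 2915 ± 233 CPM), Hspa2, a chaperone of meiotic and spermatid cells (1512 ± 84.4 and 1601 ± 83.6 CPM), and the proteasome activator Psme4 (664 ± 10.5 and 750 ± 124 CPM). Their groups overlapped.

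Regulators of spermatid transcription showed both directions. Of 9 genes 5 had log2 fold changes above 0 and 4 below, with a median of 0.04. By edgeR 0 passed the adjusted p, with 1 higher and 1 lower at an unadjusted p under 0.05, and DESeq2 called 0. Fhl5, a coactivator of CREM, measured 293 ± 21.8 and 243 ± 16.1 CPM without overlap, a log2 fold change of -0.27 (unadjusted p = 0.00438, edgeR adjusted p = 0.282). Crem itself, named after its values were seen, measured 219 ± 16.6 and 204 ± 7.33 CPM with overlap (edgeR adjusted p = 0.551). Rfx2, a transcription factor of spermatid and cilia genes, measured 308 ± 11.1 and 351 ± 31.9 CPM, higher in all cKO libraries (edgeR adjusted p = 0.315). Of the germ cell forms of general factors, Tbpl1 had 353 ± 16.2 and 329 ± 6.57 CPM without overlap (edgeR adjusted p = 0.499), and Gtf2a1l had 313 ± 5.07 and 310 ± 8.11 CPM with overlap (SD, n = 3).

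Genes for the storage and translation of spermatid mRNA had a median log2 fold change of 0.01 over 11 genes, with 6 above 0 and 5 below, and -0.02 with library totals alone. By edgeR 0 passed the adjusted p, with 1 higher and 2 lower at an unadjusted p under 0.05, and DESeq2 called 0. Ybx3 and Ybx2, Y-box proteins that hold stored messages including those of protamines, measured 1953 ± 132 and 1961 ± 198 CPM and 1767 ± 148 and 1795 ± 157 CPM (SD, n = 3). Papolb, a cytoplasmic poly(A) polymerase of the testis, measured 944 ± 47.2 and 852 ± 36.6 CPM, and Paip2, a regulator of the poly(A)-binding protein, 213 ± 11.4 and 190 ± 8.25 CPM, both lower in all cKO libraries (edgeR adjusted p = 0.355 and 0.338). Eif4g3, a translation initiation factor, measured 435 ± 4.62 and 518 ± 71 CPM, higher in all cKO libraries (edgeR adjusted p = 0.305).

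Markers of the cells that hold the members' RNA were set beside them. Of 12 round spermatid markers 10 had log2 fold changes below 0, with a median of -0.12, and 4 had an unadjusted p under 0.05, all lower, while 0 passed the adjusted p by edgeR or DESeq2. Their summed level was 2316 to 2489 CPM in the WT and 2267 to 2283 CPM in the cKO libraries, without overlap, and the part of this in the lower Tnp1 and Hmgb4 levels was not tested. Izumo1, the sperm protein that binds the egg, measured 93.1 ± 6.82 and 77.5 ± 0.611 CPM (SD, n = 3), which differed by -0.26 on the log2 scale (edgeR adjusted p = 0.276). With the correction for GC content and length 7 of the 12 were below 0 and the median was -0.06. Zpbp and Zpbp2, zona pellucida binding proteins of the acrosome, had -0.16 and -0.14, and Spata16 had 0.08. Of the 12 elongating spermatid markers other than the members, 8 were below 0 and 4 above, with a median of -0.05 and values from -0.33 to 0.6. After the same correction 6 were below 0 and the median was 0.00. Their summed level was 11387 to 12613 CPM in the WT and 11509 to 12191 CPM in the cKO libraries, with overlap. Ropn1, a protein of the sperm tail sheath, had the lowest value (362 ± 36.7 and 289 ± 17.1 CPM, edgeR adjusted p = 0.276, DESeq2 adjusted p = 0.0286). The sheath protein Akap4 had -0.14, Oaz3 had -0.03 and the sperm glycolytic enzyme Gapdhs had 0.10. With libraries scaled to the geometric mean of these 12 markers, not to their sum, the log2 fold change was -0.38 for Tnp1 and -0.23 for Hmgb4.

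Markers of the other cells of the testis were detected at levels of their own. Summed levels of 8 pachytene spermatocyte markers were 5842 to 5947 CPM in the WT and 5265 to 5824 CPM in the cKO libraries, without overlap. Most of this sum came from Ldhc (3859 and 3624 CPM) and Pgk2 (1192 and 1061 CPM). Of the 8 genes 5 were below 0 and 3 above, 0 separated the groups, and the median was -0.06, or 0.03 after the correction for GC content and length. Those of 8 spermatogonia markers were 125 to 147 and 127 to 146 CPM, and of 7 Sertoli cell markers 1168 to 1421 and 1198 to 1553 CPM. The 6 Leydig cell markers summed to 772 to 924 and 713 to 926 CPM, the 5 peritubular myoid markers to 118 to 122 and 113 to 135 CPM, and the 6 macrophage markers to 95.9 to 108 and 98.1 to 109 CPM. These sums overlapped between groups in the lists from spermatogonia to macrophages, with Clu (1091 and 1187 CPM) carrying most of the Sertoli cell sum. By gene, 5 of 6 macrophage markers were below 0 (median -0.17, with Fcgr3 at -0.34 and Mrc1 at 0.25) and 5 of 6 Leydig cell markers (median -0.14), while 6 of 7 Sertoli cell markers (median 0.07) and 6 of 8 spermatogonia markers (median 0.10) were above 0. The peritubular myoid markers had 4 of 5 below 0 (median -0.04). The part of these cells in the members' levels was not tested. By edgeR 0 genes of these lists passed the adjusted p, and DESeq2 called 1, the Leydig cell gene Hsd17b3. The spermatogonia marker Nanos3 had no adjusted p from DESeq2. The 5 epididymis markers summed to at most 0.257 CPM, with Lcn8 at 0 in all libraries. The library cKO 2, lowest for each member, was also the one with the fewest assigned reads, 56991431, and the part of depth was not tested.

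**Figure D5:**
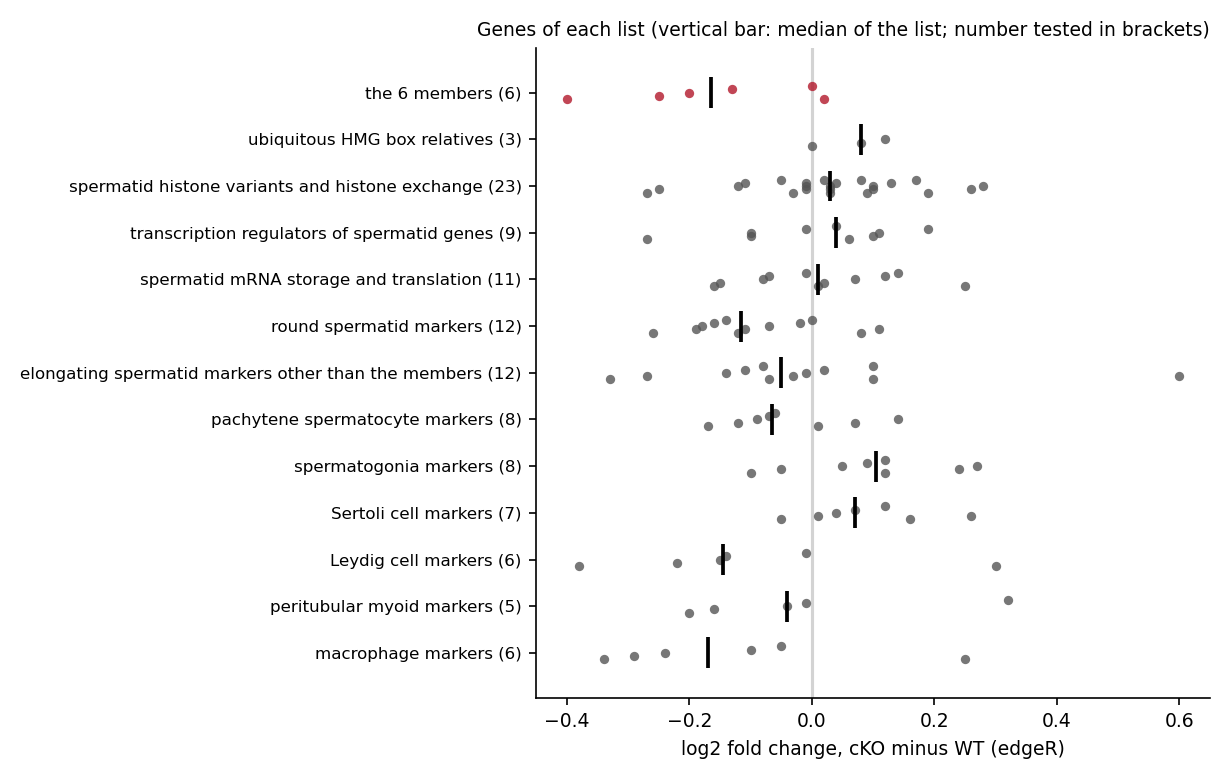
Log2 fold change, cKO minus WT (horizontal axis, edgeR), of each tested gene in each list (rows, number tested in brackets), with a vertical bar at the median of the list. The 6 members (red, median -0.16) span -0.40 to 0.02, and the 12 round spermatid markers (median -0.12) lie mostly below 0.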

How the data were processed

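The authors deposited 1 table of read counts per gene for each of the 6 libraries, with no normalisation, in the layout of STAR's gene counts. STAR, HTSeq, DESeq2 and mm10 are named, without versions or roles, in the submitters' processing notes. The opposite-strand counts were used, which held 96.0% to 96.2% of the reads on both strands. Unmapped, multimapping, ambiguous and no-feature lines (14.8% to 16.7% of reads) were left out. GENCODE M21 matched 52147 of 53700 identifiers.

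Counts were tested with edgeR 4.0.16 in R 4.3.3 (filterByExpr at a minimum of 10 reads, TMM scaling, quasi-likelihood F test without covariates, Benjamini-Hochberg adjustment over 21902 genes, threshold 0.05). Ratios and shares were tested by exact permutation of libraries with scipy 1.17.1. Alternatives were other scalings, filters, strand columns, a replicate block, robust fitting, a loess correction for GC content and length with a span of 0.3, DESeq2 1.42.0 and leaving out each library. RefSeq promoters matched all 6 genes.

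The members, lists and tests were chosen with earlier results of these data known. By rule the text names the 6 members, tested neighbours, the 3 most alike genes for Tnp1, Prm1 and Hmgb4, and, per list of spermatid genes, up to 3 genes of highest mean and up to 3 with an unadjusted p under 0.05 and no overlap, not all of which are printed. The edgeR and DESeq2 p-values set the difference between groups beside the spread within groups of these 6 samples. The exact permutation p-values are limited by the number of libraries.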

Additional observations from a re-analysis of the deposited data

How the results depend on the processing

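Under 19 alternatives per gene, Tnp1 and Hmgb4 had negative log2 fold changes throughout, and Tnp2 and Prm1 likewise. Leaving out 1 library at a time gave -0.51 to -0.32 for Tnp1, -0.29 to -0.23 for Hmgb4, -0.22 to -0.05 for Tnp2, -0.30 to -0.08 for Prm1, -0.09 to 0.08 for Prm2 and -0.08 to 0.11 for Prm3. Tnp1 passed an adjusted p of 0.05 without a filter on low counts (-0.41), with DESeq2 (-0.40) and without WT replicate 1 (-0.50), and Hmgb4 passed it without the filter (-0.26) and with DESeq2 (-0.25). The number of members past the threshold was therefore 2 without the filter, 2 with DESeq2 and 0 to 1 with a library left out, and 0 under the other alternatives. Beside these, 757 of 36605 genes passed without the filter, 193 of 13895 with DESeq2 and 116 of 22392 without WT replicate 1. Prm2 was below 0 with library totals alone (-0.02), upper quartile scaling (-0.02), no filter (-0.01), at least 10 reads in every library (-0.00), without WT replicate 2 (-0.05) and without cKO replicate 1 (-0.09). Prm3 was below 0 with library totals alone (-0.00), upper quartile scaling (-0.00), without WT replicate 2 (-0.04) and without cKO replicate 1 (-0.08). The GC and length correction moved each member upwards, to -0.22 for Tnp1, -0.10 for Hmgb4, -0.02 for Tnp2, -0.06 for Prm1, 0.11 for Prm2 and 0.14 for Prm3. The cause of these changes was not tested.

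Over all genes 4 of 21902 passed in the edgeR fit, against 7 of 21902 with scaling to the elongating spermatid list and 2 of 22460 with unstranded counts. Without the filter 757 of 36605 passed, and with DESeq2 193 of 13895. DESeq2 without its filter on low means called 73 of 36603. With a library left out 1 to 628 passed, with 628 of 22255 without cKO replicate 1 and 116 of 22392 without WT replicate 1. The ratio of Prm1 to Prm2 ranged from -0.25 to -0.16 on the log2 scale with a library left out, that of Tnp1 to Tnp2 from -0.37 to -0.16, and the protamine to transition protein ratio from 0.10 to 0.22. The labels name no batch, and replicate numbers were not taken as pairs in the main fit. Deviations of WT and cKO libraries correlated at 0.35, 0.26 and -0.05 where the numbers were the same. Where the numbers differed, the values ran from -0.34 to 0.11, so that 0.35 and 0.26 were the highest. A fit with the number as a replicate block called 49 genes and 0 members, with -0.40 for Tnp1 (edgeR adjusted p = 0.0634) and -0.25 for Hmgb4 (edgeR adjusted p = 0.0884). In paired exact tests of the 3 ratios p was 0.25, the smallest that 3 pairs allow. With 3 libraries per group, Tnp1 and Hmgb4 passed the adjusted threshold of edgeR only without the filter on low counts.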
